A study of Mus musculus with 30 samples.

Results

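The p53 target genes described here are 32 mouse genes whose transcription p53 is known to raise, together with genes that control p53 itself. They were chosen by name: each gene is read from the probe sets whose gene symbol, in the platform annotation, is one of the 32. Of these, 30 genes had a probe set, out of 18193 genes on the array, and Trp53, the gene for p53, and Bax were not analysed here. The 30 genes had 58 probe sets, and each gene was read from its brightest 1, by the mean of log2 signals across the 30 arrays. The study measured RNA on 22 arrays of neurospheres and 8 arrays of embryonic tissue. Neurospheres are floating cultures of neural progenitors, here grown with EGF and bFGF from the ganglionic eminences of E14.5 embryos on a mixed Swiss and C57BL/6J background. All neurospheres lacked Ink4a/Arf on both alleles and had received a retrovirus for EGFRvIII, a mutant form of the epidermal growth factor receptor, with puromycin selection. The untransduced arrays, meaning those without a further virus, came from 3 Olig1/2+/+ (wild-type), 3 Olig1/2+/- (heterozygous) and 6 Olig1/2-/- (null) lines. Null lines 12, 13 and 14 and heterozygous lines 11 and 15 also gave 1 array each after a GFP retrovirus and 1 after an Olig2 retrovirus, both with blasticidin selection. Cells were harvested between passages 4 and 15, and the labels do not state the passage of each array. The tissue was forebrain and spinal cord of 4 embryos at E18.5, 2 null and 2 heterozygous, where the sample labels name Olig2 and the series design names Olig1/2. The tissue labels name no Ink4a/Arf deletion and no virus.

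The p53 protein is a transcription factor that binds DNA as a tetramer after damage or oncogenic stress and switches on genes that stop the cell cycle, repair DNA or kill the cell. Some of its targets act back on it: Mdm2 encodes the ubiquitin ligase that marks p53 for destruction, Mdm4 its partner, and Ppm1d and Ccng1 encode a phosphatase and a cyclin that dampen the response. The Arf product of the Ink4a/Arf locus normally blocks Mdm2, so that cells without it hold p53 at a lower level, and all neurospheres here lacked it. Olig1 and Olig2 are basic helix-loop-helix factors of the oligodendrocyte lineage, and Olig2 is known to oppose p53 in neural progenitors. The untransduced neurospheres compare progenitors with and without Olig1/2 while EGFRvIII is present in all of them, and the virus arrays compare a return of Olig2 with a control virus.

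The DNA element that p53 binds is shown first because it is a feature these genes can share that the array values do not use. RefSeq promoter windows of assembly GRCm38.p6, which reach from 250 bases before to 50 bases after a gene's start, matched 22 of the 30 genes. The p53 full response element, a pair of 10-base half-sites side by side, was searched with at most 2 mismatches and with the core C and G of each half-site intact. It occurred in the windows of 3 of the 22 genes (13.6%), Cdkn1a, Ccng1 and Gtse1, against 0.392% of 27025 genes with a window. Each of the 3 had 1 mismatch. Both lines below run 5′ to 3′ on the gene's strand, with the 20 bases of the element in capitals.
Cdkn1a, chr17:29090908-29090967, plus strand: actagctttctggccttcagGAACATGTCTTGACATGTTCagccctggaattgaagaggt
Ccng1, chr11:40755442-40755501, minus strand: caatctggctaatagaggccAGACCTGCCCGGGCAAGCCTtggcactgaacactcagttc
A single half-site without mismatch was found in 10 of the 22 genes (45.5%) against 9.55% of all genes, and overlapped the full element in Cdkn1a, Ccng1 and Gtse1. The half-sites of Mdm2 and Ei24, genes described below, are shown with the 10 bases in capitals.
Mdm2, chr10:117710915-117710964, minus strand: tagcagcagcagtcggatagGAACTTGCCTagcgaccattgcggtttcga
Ei24, chr9:36797335-36797364, minus strand: ccagctgccccgtgcggcccGGGCATGCCC
These are matches of letters in short windows, and binding was not measured. The genes were chosen as known p53 targets, so that a higher share of matches than in other genes is a description of that choice.

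Signals are MAS5 values scaled so that the trimmed mean of each array is close to 500, and the median signal of an array ran from 128.9 to 217.4. Relative to Olig-expressing lines, the Olig1 probe set fell by 1.61 and the Olig2 probe set fell by 0.80 (log2) in the null lines. Signal of both remained, and the Olig2 probe set was not higher with the Olig2 virus in null lines (-0.53, adjusted p 0.181). The position of these probes relative to the deletion and to the viral insert was not looked up here, so that they do not check either. Cdkn2a, the Ink4a/Arf gene, was low on all 30 arrays (18.1 to 147.5). Of 10 neural stem markers, 8 or 9 had a mean above the array median in each neurosphere group. The array of null line 13 with GFP stood apart, with an A260/A280 ratio of 2.83 (1.75 to 2.2 in the others) and the lowest median signal. Its Gapdh 3′ to 5′ ratio, a sign of RNA integrity, was 0.43 on the log2 scale, against -0.09 and -0.04 in the other null GFP arrays and -0.25 to -0.20 with Olig2. The results that rest on this array are therefore also given without line 13. Median signals were lower on all 3 null GFP arrays (128.9 to 151.6) than on the null Olig2 arrays (173.6 to 191.2), which leaving out line 13 does not remove.

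With Olig2 in place of GFP in the null lines, Ccng1, Zmat3, Trp53inp1, Mdm2 and 7 other p53 genes fell, and none rose. A gene was called at a limma adjusted p under 0.05 (Benjamini-Hochberg over all 12454 genes tested), and differences are on the scale of log2 of the signal plus 16. Of the 32 members 26 passed the filter on low signals, and 12 were called, all lower. Pmaip1, 1 of the 12, passed the filter through GFP arrays alone, where it is high, so it is left out of the counts in the rest of this paragraph. Among the other 25, 11 were called, where over all genes 7.89% were called, 4.64% lower and 3.24% higher. They were 3 of 6 feedback genes and regulators, 3 of 7 arrest genes, 4 of 6 death genes, 0 of 5 repair genes and Pltp, and no test compared the roles. The median difference of the 25 was -0.53, against 0.03 over all genes tested. In 14 of the 25 every Olig2 array lay below every GFP array, against 14.8% of all genes, and in 1, Mdm4, every Olig2 array lay above, against 13.8%. The 4 members below the filter in neurospheres were Plk3, Fas, Tnfrsf10b and Perp. The list was chosen with earlier results of these data known, and its counts are a description.

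**Figure D1:**
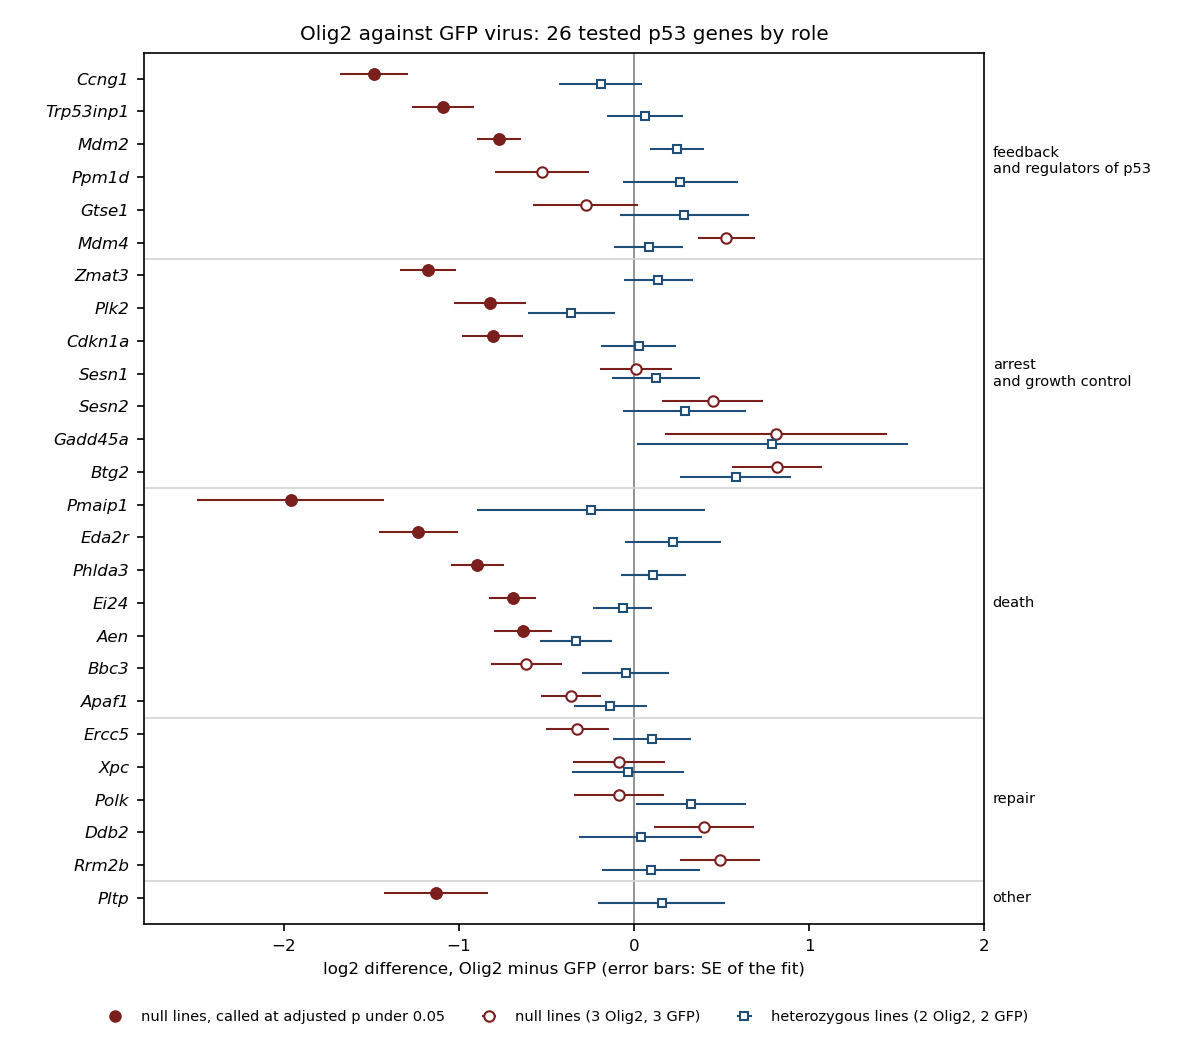
The log2 difference between Olig2 and GFP virus (x axis, bars are the SE of the fit) for the 26 tested p53 genes, grouped by role. Filled circles are the 12 genes called in the null lines, open circles the others, and squares the heterozygous lines, where 0 genes were called. The called genes lie between -1.96 for Pmaip1 and -0.63 for Aen, and the 5 repair genes lie on both sides of 0.

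Among the genes that act back on p53, Ccng1 had the largest difference. Its signals in null lines 12, 13 and 14 were 4411, 5380.0 and 3389 with GFP and 1248, 1449 and 1988 with Olig2, against 2811, 3622 and 2787 without either virus. Every GFP array exceeded every Olig2 array, and the untransduced arrays lay between the groups apart from line 13, whose untransduced signal was above that of GFP line 14. Ccng1, the cyclin gene that recruits a phosphatase to Mdm2, fell by 1.48 on the log2 scale (SE 0.19, adjusted p 0.00225), which is 2.8-fold lower. Trp53inp1 encodes a nuclear protein that promotes p53 phosphorylation and autophagy. Its signals were 2841, 4484 and 3279 with GFP and 1579, 1420.3 and 1891 with Olig2, against 2916, 2811 and 2978 untransduced. The Olig2 arrays were below all 6 others, and GFP line 13 was the highest. Trp53inp1 fell by 1.09 on the log2 scale (SE 0.18, adjusted p 0.00548).

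Mdm2 signals were 2365, 2190.3 and 2041 with GFP and 1146, 1261 and 1450.1 with Olig2 in the same order of lines, against 2399.5, 1793 and 1607 untransduced. All Olig2 arrays were lower than all others of these lines, and the untransduced array of line 12 was about as high as its GFP array. Mdm2 fell by 0.77 on the log2 scale (SE 0.13, adjusted p 0.00584). Mdm4 went the other way without a call. Its signals were 575, 581 and 568 with GFP and 799, 729 and 1001 with Olig2, with a difference of 0.53 (SE 0.16, adjusted p 0.0685) and no overlap. The phosphatase gene Ppm1d, at 414, 529 and 672 with GFP and 389.5, 403 and 301 with Olig2, differed by -0.53 (SE 0.27, adjusted p 0.247). Gtse1, which encodes a microtubule protein that carries p53 out of the nucleus, overlapped between the viruses (-0.28).

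Of the arrest and growth genes, Zmat3, Plk2 and Cdkn1a fell. Zmat3, which encodes a zinc-finger RNA-binding protein that restrains growth, had signals of 2431, 2671 and 2248 with GFP and 898, 985 and 1393 with Olig2 in lines 12, 13 and 14. The untransduced arrays of these lines, at 1747, 1914 and 1862, lay between the viruses in each line. Zmat3 fell by 1.18 on the log2 scale (SE 0.16, adjusted p 0.0027). Plk2, a polo-like kinase gene, had signals of 6427, 8263 and 7301 with GFP and 3819, 3102 and 5884 with Olig2, against 6678, 8358 and 6396 untransduced. The Olig2 array of line 14 was close to the other arrays of that line, and those of lines 12 and 13 were far below theirs. Plk2 fell by 0.82 on the log2 scale (SE 0.20, adjusted p 0.0324).

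Cdkn1a encodes p21, the inhibitor of cyclin-dependent kinases through which p53 halts the cycle. Its signals were 6165, 6972 and 4121 with GFP and 2894, 3325 and 3409 with Olig2, against 3107, 5545 and 4013 untransduced. GFP lines 12 and 13 were the highest of these arrays, while GFP line 14 was close to its untransduced array. Cdkn1a fell by 0.81 on the log2 scale (SE 0.17, adjusted p 0.0196) against GFP, and against the untransduced arrays, with which the Olig2 arrays overlapped, the difference was -0.36 (SE 0.21, adjusted p 0.392). The other arrest genes had no call. The antiproliferative gene Btg2 was at 2461, 5176 and 3914 with GFP and 8251, 7324 and 4559 with Olig2 and differed by 0.82 (SE 0.26, adjusted p 0.0756). In each line it was lower with GFP than untransduced (7894, 7842 and 5758 in the 3 lines), and the difference of GFP from untransduced was -0.94 (SE 0.25, adjusted p 0.226). Gadd45a, a stress sensor gene, varied most between arrays of a group, with GFP signals of 247, 2433 and 707, and its difference of 0.81 had an SE of 0.63. The sestrin genes, whose products restrain mTORC1 signalling, differed by 0.01 for Sesn1 and 0.45 for Sesn2.

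All 6 death genes tested besides Pmaip1 were lower in every Olig2 array than in every GFP array, and 4 passed the test. Over all genes 14.8% were lower without overlap and 4.64% were called lower, and no test compared the death genes with other roles. Pmaip1, the gene for the BH3-only protein Noxa, was at 234, 239.9 and 147 with GFP and 76.4, 8.1 and 63.1 with Olig2, against 179, 149 and 149 untransduced. With Olig2 all 3 arrays were below the array median, line 13 was close to 0, and the gene passed the filter through GFP lines 12 and 13 alone. The fit gave -1.96 (SE 0.53, adjusted p 0.0458), which is a description, since a gene that passed in this way had to be higher with GFP. Eda2r, a death receptor gene of the TNF receptor family, was at 929.6, 1201 and 808 with GFP and 296, 399 and 548 with Olig2, against 567, 849 and 801 untransduced. It fell by 1.23 on the log2 scale (SE 0.22, adjusted p 0.00974), and the Olig2 arrays were below all untransduced arrays of the null lines. Phlda3, which encodes a repressor of Akt, was at 2043, 2489.9 and 1978 with GFP and 989.8, 1138 and 1364 with Olig2, against 1756, 1869 and 1662 untransduced. In each line the untransduced signal lay between the viruses, and Phlda3 fell by 0.89 on the log2 scale (SE 0.15, adjusted p 0.00689).

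Ei24, a gene of the endoplasmic reticulum that p53 induces, was at 5702, 6002 and 4959 with GFP and 3043, 3592 and 3651 with Olig2, against 4763, 4761 and 3787 untransduced. It lay in the same order in each line, GFP above untransduced above Olig2, and fell by 0.69 on the log2 scale (SE 0.14, adjusted p 0.0136). Aen, which encodes a nuclease that breaks down DNA in dying cells, was at 1998, 1982 and 1627 with GFP and 963, 1326 and 1330.1 with Olig2, against 1324, 1585 and 1754 untransduced. It fell by 0.63 on the log2 scale (SE 0.17, adjusted p 0.0406), and line 14 contributed least. Bbc3, the gene for Puma, was at 438, 499 and 508 with GFP and 357, 289 and 284 with Olig2 with a difference of -0.61 (SE 0.20, adjusted p 0.0858). Apaf1, the scaffold of the apoptosome, was at 683, 875 and 772 with GFP and 604, 526 and 673 with Olig2 with a difference of -0.36 (SE 0.17, adjusted p 0.214). Perp, a desmosome gene tied to p53-dependent death, was not tested because its signals were below the array median on nearly all neurosphere arrays. They were 94.9, 170.4 and 115 with GFP and 14.6, 14.3 and 10.2 with Olig2, so that the Olig2 arrays were near 0. Untransduced Perp signals of the 6 null lines ran from 16.1 to 118, which spans most of this range.

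None of the 5 repair genes was called, where 7.89% of all genes were called. Rrm2b, the p53-induced subunit of ribonucleotide reductase, had the largest difference of them, 0.49 (SE 0.23, adjusted p 0.21), with signals of 463, 441 and 315 with GFP and 607, 739.9 and 411 with Olig2. Its groups overlapped, and so did those of Ddb2 (0.40), Xpc (-0.09) and Ercc5 (-0.32), genes of nucleotide excision repair. Polk, a polymerase gene for synthesis across lesions, differed by -0.08. Rrm2b lies on chromosome 15, whose genes had a median log2 deviation of 0.24, 0.22 and 0.15 with Olig2 in lines 12, 13 and 14. With GFP the values were 0.2, -0.11 and -0.08, each from the gene means over neurospheres and relative to all genes. The part of this in Rrm2b, and in Gtse1 of the same chromosome, was not tested. Pltp, which encodes the phospholipid transfer protein of lipoproteins and is induced by p53, was at 3136, 3050.0 and 2001 with GFP and 1165, 991 and 1536 with Olig2, against 1757, 2075 and 3506 untransduced. The Olig2 arrays were the lowest in each line, and Pltp fell by 1.13 on the log2 scale (SE 0.30, adjusted p 0.0401).

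**Figure D2:**
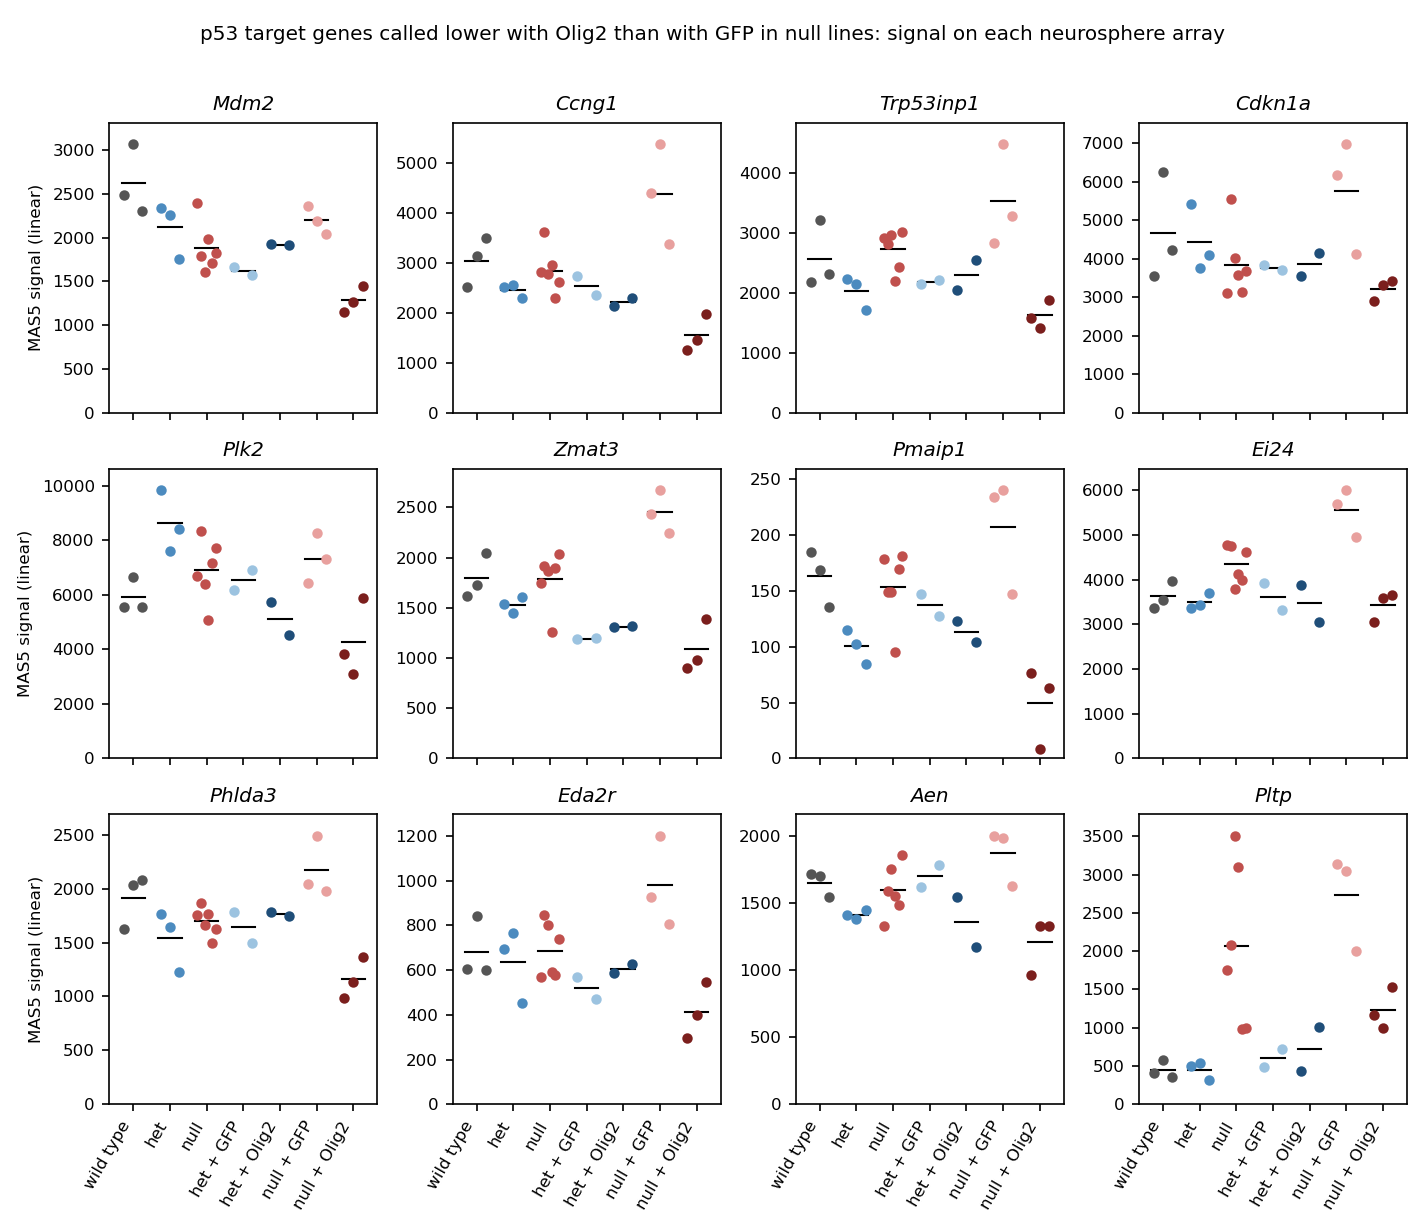
Signals of the 12 p53 genes called lower with Olig2 than with GFP in null lines, 1 panel a gene, with 1 point for each of the 22 neurosphere arrays by genotype and virus. In the null lines the 3 Olig2 arrays lie below the 3 GFP arrays for each of the 12 genes. These genes were chosen on these arrays for being lower with Olig2, and Pmaip1 passed the filter through GFP arrays alone, so nothing is read from that separation. In the heterozygous lines none of these genes was called between the viruses.

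Several of these calls depended on single arrays. The counts given here include Pmaip1 where it was called. Where 1 of a pair of heterozygous arrays is left out, the lone array is assumed to vary like the other groups. Mdm2, Ccng1, Trp53inp1, Zmat3, Phlda3 and Eda2r were called whichever of the 10 virus arrays was left out. The count of called members was 6 without Olig2 line 12, 7 without Olig2 line 13, and between 8 and 14 without each of the other arrays. Without both arrays of line 13 it was 3, namely Ccng1 (-1.29), Zmat3 (-1.05) and Trp53inp1 (-0.82). Those that then lost the call had differences of -0.76 for Mdm2 (adjusted p 0.055), -0.78 for Phlda3, -1.07 for Eda2r, -0.67 for Ei24, -0.68 for Cdkn1a, -0.53 for Plk2, -0.66 for Aen and -0.90 for Pltp, and Pmaip1 no longer passed the filter. Cdkn1a lost its call without the GFP or the Olig2 array of line 12 or line 13 (-1.03 to -0.65, highest adjusted p 0.0814), and Ei24 without Olig2 line 12 (-0.77 to -0.61, highest adjusted p 0.0613). Pltp lost it without any 1 of the GFP and Olig2 arrays of lines 12 and 13 or the heterozygous GFP arrays (-1.34 to -0.99, highest adjusted p 0.131). Aen lost it in the same cases and without GFP line 14 (-0.73 to -0.48, highest adjusted p 0.144). For Plk2 the arrays were Olig2 lines 12 and 13, GFP lines 13 and 14 and both heterozygous GFP arrays (-1.08 to -0.62, highest adjusted p 0.115). For Pmaip1 they were Olig2 lines 12 and 13, GFP line 14 and all 4 heterozygous arrays (-2.32 to -1.35, highest adjusted p 0.0959). With the Gapdh ratio as a covariate 4 members were called, Mdm2 (-0.79), Ccng1 (-1.25) and Zmat3 (-1.11) lower and Btg2 higher. The other called members stayed below 0 but lost the call, with differences from -0.55 for Ei24 and Aen to -1.80 for Pmaip1, among them -0.81 for Trp53inp1, -0.99 for Eda2r, -0.71 for Phlda3 and -0.58 for Cdkn1a. With the culture line as a replicate block 10 were called, and Aen (adjusted p 0.063) and Pmaip1 (adjusted p 0.064) were lost. Quantile normalization of the arrays ended the calls of Plk2, Aen and Pltp.

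Other probe sets of the same genes gave a mixed reading. Of the 12 called genes, 7 had a further probe set, 11 in all, of which 9 were below 0 for Olig2 against GFP and 2 above. In 3 of the 11 every Olig2 array was below every GFP array, and these were the second probe sets of Cdkn1a (-1.24) and Pltp (-1.04) and a further one of Ccng1 (-0.97). Mdm2 was the gene whose probe sets disagreed most, with -0.15 and 0.89 for its dimmer ones against -0.77 for the one used. With the mean over all probe sets of a gene 8 members were called. Mdm2 (-0.01, adjusted p 0.969), Aen (-0.32), Plk2 (-0.83) and Pltp (-1.09) lost the call.

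In the heterozygous lines, which keep 1 copy of Olig1/2, 0 of the 26 members were called with Olig2 against GFP. This was the count for all genes too (0%), with 484 genes (3.89%) and 0 members at an unadjusted limma p under 0.05, and with 2 arrays a group the lowest adjusted p was 1. Ccng1 in lines 11 and 15 was at 2736 and 2359 with GFP and 2144 and 2307 with Olig2, a difference of -0.19 (SE 0.24). Zmat3 was at 1185 and 1196 with GFP and 1306 and 1321 with Olig2, a difference of 0.14 (SE 0.20). For Ccng1 both Olig2 arrays were slightly below, and for Zmat3 slightly above, the GFP arrays. Mdm2 was at 1666 and 1569 with GFP and 1932 and 1912 with Olig2, a difference of 0.25 (SE 0.15), with both Olig2 arrays higher. Cdkn1a was at 3828 and 3715 with GFP and 3547 and 4157 with Olig2, Trp53inp1 at 2156 and 2224 with GFP and 2044 and 2558 with Olig2, and neither separated the viruses. Plk2, at 6174 and 6902 with GFP and 5729.6 and 4517 with Olig2, and Aen, at 1617 and 1779 with GFP and 1542 and 1172 with Olig2, were lower in both Olig2 arrays, by differences of -0.36 and -0.33.

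The death genes Ei24, at 3917 and 3315 with GFP and 3889 and 3047 with Olig2, Phlda3, at 1786 and 1495 with GFP and 1785 and 1742 with Olig2, and Pmaip1, at 147 and 127 with GFP and 123 and 104 with Olig2, differed between the viruses by less than in any null line. Eda2r was at 570.1 and 469 with GFP and 587 and 626 with Olig2, and Pltp at 487 and 723 with GFP and 436 and 1008 with Olig2. The repair gene Rrm2b was at 567 and 473 with GFP and 525 and 585 with Olig2. The difference between the genotypes in the effect of Olig2 was tested as an interaction. None of the 26 members was called, against 0.0562% of all genes, and 9 members had an unadjusted p under 0.05, where 10.7% of all genes did. The largest of those 9 in size was Eda2r (-1.45, SE 0.36, adjusted p 0.194), and the smallest adjusted p values were those of Zmat3 (-1.32, SE 0.26, adjusted p 0.0951) and Mdm2 (-1.02, SE 0.20, adjusted p 0.0995). Zmat3 was called in 1 fit over all 22 neurosphere arrays, and without Olig2 line 14. The p53 genes are thus not shown to respond differently in the 2 genotypes at the threshold used.

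Set against the untransduced cultures of the same lines, 7 of the 26 members fell with Olig2 and 0 rose, where 4.54% of all genes were called and 2.77% were called lower. These were Ccng1 (-0.99, SE 0.18, adjusted p 0.00805), Trp53inp1 (-0.84, SE 0.15, adjusted p 0.00805), Zmat3 (-0.77, SE 0.14, adjusted p 0.00805), Phlda3 (-0.60), Plk2 (-0.78), Eda2r (-0.83) and Mdm2 (-0.57). This comparison shares its Olig2 arrays with the one against GFP. Ccng1, Trp53inp1 and Zmat3 kept the call without each array in turn, and Trp53inp1 alone was called without line 13. Mdm2 (-0.69 to -0.40, highest adjusted p 0.139) and Phlda3 (-0.72 to -0.49, highest adjusted p 0.0936) lost it without the untransduced or the Olig2 array of line 12 or 13. Plk2 (-1.04 to -0.58, highest adjusted p 0.158) lost it without 7 of the 15 arrays and Eda2r (-1.05 to -0.62, highest adjusted p 0.175) without 12. With the mean over all probe sets Mdm2 (-0.26, adjusted p 0.384) and Plk2 (-0.62, adjusted p 0.22) were not called. With the line as a block 5 were called, and Mdm2 (adjusted p 0.065) and Plk2 (adjusted p 0.060) were lost. The GFP virus itself gave 0 calls among the 26 in null lines, against 0.0234% of all genes, with 6 members and 11.5% of all genes at an unadjusted p under 0.05. Of those 6, Zmat3 (0.41), Ccng1 (0.50), Ei24 (0.33) and Phlda3 (0.29) were above 0 and Btg2 and Gadd45a below. In heterozygous lines GFP gave 0 calls as well, for the members and for all genes (0%), with 888 genes (6.92%) and 1 member, Mdm2 (-0.50), at an unadjusted p under 0.05.

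Line by line, the median of Olig2 minus GFP over all 26 tested members, Pmaip1 among them, was -0.79 in null line 12, -0.73 in line 13 and -0.30 in line 14. It was -0.06 in heterozygous line 11 and 0.21 in line 15. Olig2 minus untransduced gave -0.16, -0.46 and -0.34 in null lines 12, 13 and 14, and -0.11 and 0.06 in the heterozygous lines 11 and 15. The null line with the median closest to 0 was thus line 14 against GFP and line 12 against untransduced. GFP minus untransduced gave 0.24, 0.25 and 0.04 in the null lines, and 0.00 and -0.04 in the heterozygous lines. Over the 12 called genes the medians of Olig2 minus untransduced were -0.85, -0.96 and -0.40 in the null lines, and those of GFP minus untransduced 0.42, 0.44 and 0.16. These genes were chosen for being lower with Olig2 than with GFP on the same arrays, which pushes both values outward, so nothing is read from them. The comparisons share arrays. Of the 26 members, 9 had their highest neurosphere signal on the array of GFP line 13 and 8 their lowest on that of Olig2 line 12. The share of all genes with an extreme signal on these arrays was not counted, so nothing about p53 genes is read from this. The values without line 13 and with the Gapdh ratio as a covariate are those given above.

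**Figure D3:**
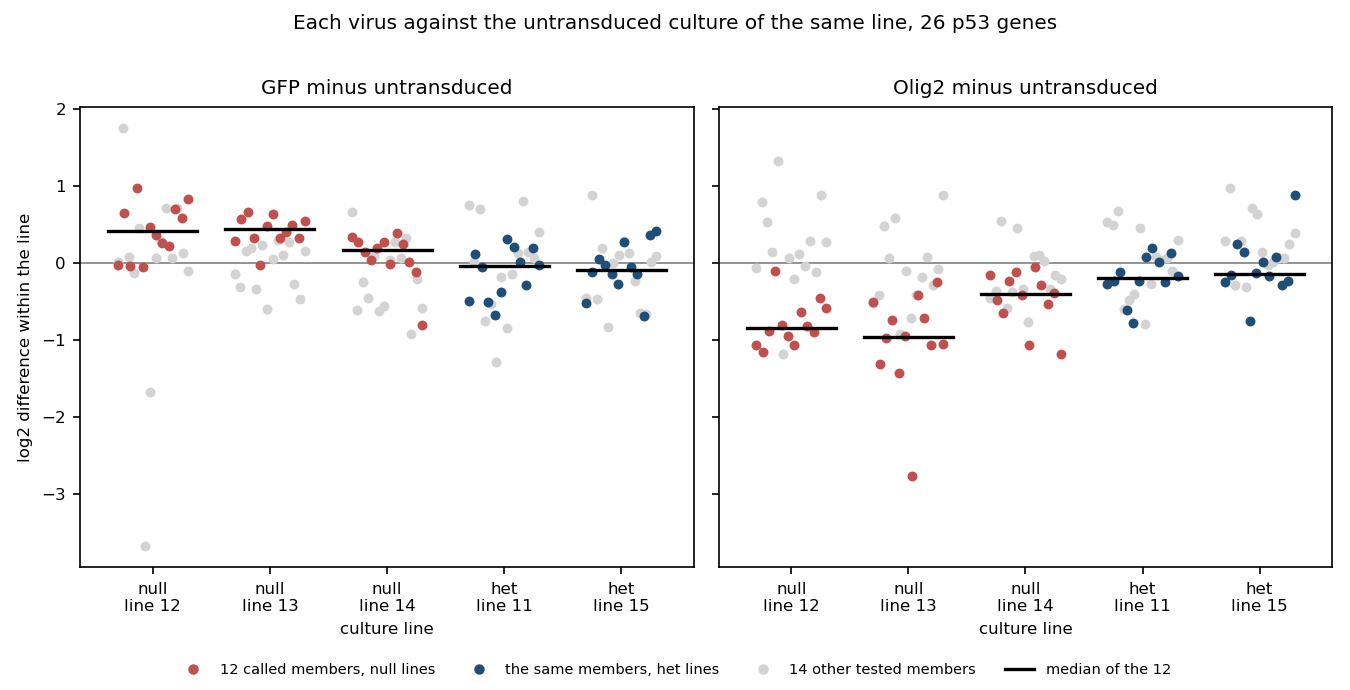
For each of the 5 culture lines with all 3 arrays, the log2 difference of GFP from untransduced (left) and of Olig2 from untransduced (right), 1 point for each of the 26 tested p53 genes. Coloured points are the 12 genes called lower with Olig2 in null lines, which were chosen on these arrays, and black bars are their medians, from -0.96 in line 13 to -0.14 in line 15 for Olig2.

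Cell type markers were read on the same arrays. The summed signal of 8 neuron markers was 9337 to 10987 with GFP and 8809 to 9066 with Olig2 in the null lines. That of 10 neural stem markers was 68223 to 88938 with GFP and 86645 to 95222 with Olig2, and that of 8 astrocyte markers 17284 to 18875 and 15117 to 26069. For 6 oligodendrocyte precursor markers, Olig1 and Olig2 among them, it was 16617 to 20159 with GFP and 16696 to 17466 with Olig2. For 4 oligodendrocyte markers it was 3890 to 6139 with GFP and 3692 to 5314 with Olig2. Of 9 neural stem markers tested 2 rose with Olig2, Hes5 (2.27, adjusted p 0.0243) and Fabp7 (0.60, adjusted p 0.0401), and of 7 astrocyte markers 2 rose, S100b (2.25, adjusted p 0.0147) and Aqp4 (2.17, adjusted p 0.036). None of either list fell, and 0 of 5 neuron markers were called. Over all genes 3.24% were called higher and 4.64% lower, and no test compared the marker lists with all genes. Of 5 microglia markers, 2 were tested: P2ry12 fell (-1.70, adjusted p 0.00663) and Csf1r was not called (0.47, adjusted p 0.258), with a summed signal of 869.9 to 1250.0 with GFP and 639.2 to 979.2 with Olig2. The part of these in the p53 genes was not tested, and fewer cells of a type and less RNA per cell cannot be told apart in such samples.

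Other p53 targets, outside the 32, were read from a list. Of 39 listed, 36 had a probe set and 30 were tested with Olig2 against GFP in null lines, where 1 rose and 5 fell, with a median of -0.24, against 3.24% and 4.64% of all genes. Ninj1, an adhesion gene that takes part in the rupture of dying cells, fell by 1.51 (adjusted p 0.00162), and the epoxide hydrolase gene Ephx1 fell by 0.70 (adjusted p 0.00453). Dcxr, a sugar reductase gene, fell by 3.14 (adjusted p 0.00778), and the phosphomannomutase gene Pmm1 rose by 1.76 (adjusted p 0.000329). Of 24 tested regulators of p53, such as damage kinases and acetyltransferases, 0 were called, with 9 at an unadjusted p under 0.05, against 25% of all genes, and a median of -0.06. The lowest adjusted p among them was 0.0593 for the acetyltransferase gene Crebbp (-0.49). Of 31 G2/M and E2F genes, which p21 acts on through the retinoblastoma pathway, 1 fell, E2f1 itself (-0.84, adjusted p 0.0354), and the median was -0.05. The median over all genes tested was 0.03.

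Without any further virus, Pltp and Ei24 were higher and Sesn1 was lower in null than in Olig-expressing lines, and no other p53 gene was called. In null against Olig-expressing neurospheres 3 of 26 tested members were called, 2 higher and 1 lower, where 8.32% of all genes were called, 4.34% higher and 3.98% lower. Pltp was at 410.2, 576 and 349 in wild-type lines 2, 3 and 20 and at 494, 538 and 320.1 in heterozygous lines 11, 15 and 26. In the null lines 12, 13, 14, 16, 21 and 24 it was at 1757, 2075, 3506, 3103, 983 and 1001. Every null array was above every other, as in 2.45% of all genes, and lines 21 and 24 were the lowest of the null lines. Pltp was higher by 2.03 on the log2 scale (SE 0.30, adjusted p 0.000618), and it was called without each array in turn, against wild-type lines alone (2.04) and against heterozygous lines alone (2.03). It was the 1 member called in each of these last comparisons, where 6.7% and 3.51% of all genes were called.

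Sesn1 was at 1451, 1114 and 1305 in wild-type, 1269, 996 and 1417 in heterozygous and 954, 908, 1161, 917, 956 and 837 in null lines. The null arrays overlapped with the lower Olig-expressing ones, and Sesn1 was lower, with a log2 difference of -0.39 (SE 0.11, adjusted p 0.0473). Ei24 was at 3369, 3546 and 3972 in wild-type, 3374, 3429.6 and 3695 in heterozygous and 4763, 4761, 3787, 4122, 3991 and 4612 in null lines. Null line 14 lay below wild-type line 20, the other null lines above all Olig-expressing lines, and Ei24 was higher by 0.28 on the log2 scale (SE 0.08, adjusted p 0.0481). Neither call was firm: Sesn1 lost it without 9 of the 12 arrays (-0.46 to -0.33, highest adjusted p 0.121) and Ei24 without 10 (0.25 to 0.32, highest adjusted p 0.12). Sesn1 kept its call without wild-type line 3, heterozygous line 15 or null line 14, and Ei24 without wild-type line 20 or null line 14. The Sesn1 call was also lost with the mean over all probe sets. Its second brightest probe set had means of 511.8 in wild-type, 467 in heterozygous and 528.5 in null lines. The dimmer ones were on average lower in null lines than in both other genotypes.

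Mdm2 was at 2491, 3067 and 2302 in wild-type, 2339, 2257 and 1755 in heterozygous and 2399.5, 1793, 1607, 1982, 1711 and 1830.0 in null lines. Wild-type lines 2 and 3 were the highest, and the difference of null from Olig-expressing lines was -0.32 (SE 0.12, adjusted p 0.116). Without null line 12 Mdm2 was called lower (-0.39, adjusted p 0.047). Cdkn1a was at 3548, 6263 and 4233 in wild-type, 5435, 3755 and 4107 in heterozygous and 3107, 5545, 4013, 3569, 3140.3 and 3683 in null lines. Wild-type line 3 was the highest, and the groups overlapped, with a difference of -0.24 (SE 0.16, adjusted p 0.438). Ccng1 was at 2517, 3137 and 3496 in wild-type, 2522, 2569 and 2299 in heterozygous and 2811, 3622, 2787, 2955, 2306 and 2622 in null lines. Zmat3 was at 1622, 1722 and 2048 in wild-type, 1536, 1444 and 1606 in heterozygous and 1747, 1914, 1862, 1261, 1893 and 2036 in null lines. Neither gene separated the genotypes (0.05 and 0.09).

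Trp53inp1 was at 2192, 3213 and 2319 in wild-type and 2228, 2143 and 1709 in heterozygous lines, and ran from 2203 to 3013 with a median of 2864 in null lines, with no call (0.26, SE 0.12, adjusted p 0.221). Plk2 was at 5571, 6671 and 5567 in wild-type and 9844, 7618 and 8401 in heterozygous lines, and ran from 5062 to 8358 with a median of 6917 in null lines. The heterozygous lines were above the wild-type lines in each array (0.53, unadjusted p 0.00513, adjusted p 0.479). Of the death genes, Phlda3 was at 1624, 2034 and 2077 in wild-type and 1767, 1644 and 1225 in heterozygous lines and ran from 1494 to 1869 with a median of 1709 in null lines. Eda2r was at 603, 841 and 602 in wild-type and 694, 765 and 453 in heterozygous lines and ran from 567 to 849 with a median of 666 in null lines. Aen was at 1715, 1696 and 1541 in wild-type and 1406, 1379.5 and 1448 in heterozygous lines and ran from 1324 to 1854 with a median of 1568 in null lines. In each of these the null lines overlapped both other genotypes. Pmaip1 was at 185, 169 and 135 in wild-type and 115, 102 and 84.2 in heterozygous lines and ran from 95.3 to 181 with a median of 159 in null lines, so that all wild-type arrays exceeded all heterozygous arrays (adjusted p 0.767). Rrm2b was at 503, 324 and 379.5 in wild-type and 423, 444 and 328 in heterozygous lines and ran from 328 to 574 with a median of 466 in null lines. In heterozygous against wild-type lines 0 of the 26 were called, against 0.0333% of all genes, and Plk2 was the 1 member among 799 genes (6.65%) at an unadjusted p under 0.05.

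**Figure D4:**
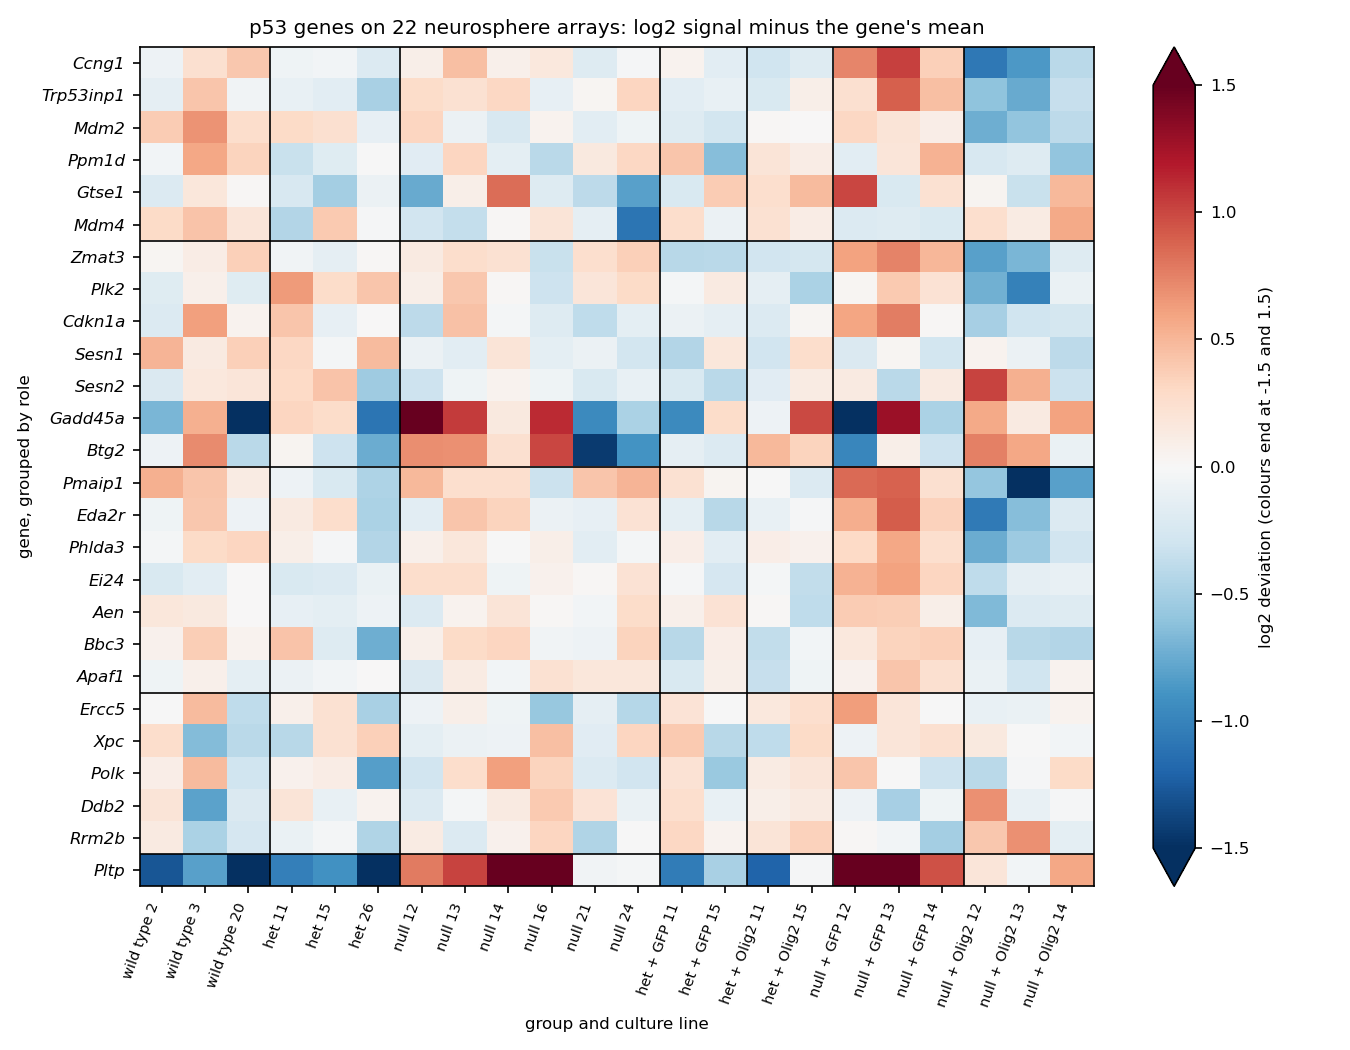
Log2 signal of the 26 tested p53 genes on the 22 neurosphere arrays, shown as the deviation of each array from the gene's mean over these arrays, with genes grouped by role and arrays by group. For the 12 genes called with Olig2 the 3 null GFP arrays are above the mean, with the highest median deviation, 0.76, in line 13, and the 3 null Olig2 arrays are below it except for Pltp in lines 12 and 14. These genes were chosen on these arrays for being lower with Olig2, so nothing is read from that order.

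With the same control virus in both genotypes, null lines were higher than heterozygous lines for 2 of 26 members, where 1.7% of all genes were called and 1.16% were called higher. Pltp, at 3136, 3050.0 and 2001 against 487 and 723, was higher by 2.14 on the log2 scale (SE 0.33, adjusted p 0.00832). Zmat3, at 2431, 2671 and 2248 against 1185 and 1196, was higher by 1.03 on the log2 scale (SE 0.18, adjusted p 0.0161). In 10 of the 25 members other than Pmaip1, which passed the filter through null GFP arrays alone, every null GFP array exceeded every heterozygous GFP array, against 15.1% of all genes. In 2 of the 25 every null GFP array lay below, against 18.6% of all genes. Those of the 10 not called included Ccng1 (0.76, SE 0.22, adjusted p 0.117), Mdm2 (0.44, SE 0.14, adjusted p 0.156) and Cdkn1a (0.57, SE 0.19, adjusted p 0.178). The 2 calls ended without heterozygous GFP line 11 or with the Gapdh covariate, and Zmat3 alone lost its call without heterozygous GFP line 15 or without line 13 (0.96 to 1.09, highest adjusted p 0.141 with single arrays left out). Here too a heterozygous array left alone in its group is assumed to vary like the other groups. With Olig2 in both genotypes 0 of 26 were called, against 0.0241% of all genes, with 6 members and 7% of all genes at an unadjusted p under 0.05. In 9 of the 26 every null Olig2 array was below every heterozygous Olig2 array, against 11% of all genes. The lowest p was that of Mdm2, at 1146, 1261 and 1450.1 against 1932 and 1912 (-0.58, SE 0.14, adjusted p 0.328), followed by Phlda3 (-0.60, SE 0.17, adjusted p 0.477).

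In the E18.5 embryo, Pltp, Cdkn1a, Phlda3 and Ccng1 were higher in spinal cord than in forebrain, Plk2, Mdm2 and 3 others were lower, and none was called between the Olig genotypes. These 9 were called among 21 members, where 40% of all genes were called (21.3% higher in spinal cord and 18.7% lower). The count is near the share of all genes and is not read as a result about p53 genes. A further 3 of the 24 members that passed the filter, Sesn2, Perp and Plk3, were also called higher, but passed through spinal cord arrays alone, where they are high, and their fits are a description. Signals of Pltp were 1237 and 1289 in null forebrain, 1245 and 1051 in heterozygous forebrain, 4536 and 4521 in null spinal cord and 2663 and 3059 in heterozygous spinal cord. All spinal cord arrays were above all forebrain arrays, and the null spinal cords were the highest. Pltp was higher by 1.57 on the log2 scale (SE 0.08, adjusted p 1.46e-07). Cdkn1a was at 807 and 772 in null forebrain, 1009.6 and 886 in heterozygous forebrain, 2066 and 1567 in null spinal cord and 2019 and 2147 in heterozygous spinal cord, and was higher by 1.15 on the log2 scale (SE 0.10, adjusted p 7.04e-06). Phlda3 was at 553 and 679 in null forebrain, 765 and 718 in heterozygous forebrain, 1260.1 and 1292 in null spinal cord and 1165 and 1456 in heterozygous spinal cord. It was higher by 0.92 on the log2 scale (SE 0.11, adjusted p 5.68e-05), with no overlap between tissues. Ccng1 was at 771 and 1013 in null forebrain, 953 and 1071 in heterozygous forebrain, 1426 and 1371 in null spinal cord and 1708 and 1289 in heterozygous spinal cord, and was higher by 0.60 on the log2 scale (SE 0.12, adjusted p 0.00203). That call rests on the probe set used: with the mean over all probe sets the Ccng1 difference was 0.01 (adjusted p 0.963), and of the dimmer probe sets 1 was on average lower in spinal cord than in forebrain in both genotypes and 1 in null embryos alone. On the same mean Plk2 (-0.78) and Apaf1 (-1.23) kept their calls.

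The sestrin gene Sesn2 was at 31.6 and 13.8 in null forebrain, 60.9 and 98.5 in heterozygous forebrain, 228 and 248 in null spinal cord and 152 and 168 in heterozygous spinal cord, and was higher by 1.83 on the log2 scale (SE 0.44, adjusted p 0.007). Perp was at 195 and 155 in null forebrain, 182 and 182 in heterozygous forebrain, 314 and 334 in null spinal cord and 261 and 310.3 in heterozygous spinal cord. It was higher by 0.72 on the log2 scale (SE 0.20, adjusted p 0.0148), and the tissues did not overlap. Plk3, a polo-like kinase gene that was low on all neurosphere arrays, was at 175 and 24.7 in null forebrain, 33.3 and 71.2 in heterozygous forebrain, 229 and 179 in null spinal cord and 214 and 226 in heterozygous spinal cord. Null forebrain 1 stood above the other forebrain arrays and just below the lowest spinal cord, and Plk3 was higher by 1.58 on the log2 scale (SE 0.51, adjusted p 0.0296). Plk2 went the other way, at 4624 and 4213 in null forebrain, 4187 and 4361 in heterozygous forebrain, 1739 and 2207 in null spinal cord and 2124 and 1619.9 in heterozygous spinal cord, and was lower, with a log2 difference of -1.18 (SE 0.10, adjusted p 5.28e-06). So did Mdm2, at 1153 and 1432 in null forebrain, 893 and 1029.6 in heterozygous forebrain, 675 and 664 in null spinal cord and 686 and 755 in heterozygous spinal cord, which was lower, with a log2 difference of -0.67 (SE 0.11, adjusted p 0.000497). Both were lower in each spinal cord than in any forebrain. Trp53inp1 was at 820.1 and 1077 in null forebrain, 1020.1 and 824 in heterozygous forebrain, 566 and 709 in null spinal cord and 569 and 499.6 in heterozygous spinal cord, and was lower, with a log2 difference of -0.66 (SE 0.13, adjusted p 0.0022). Ppm1d was at 408 and 631 in null forebrain, 601 and 658 in heterozygous forebrain, 306 and 397 in null spinal cord and 124 and 387 in heterozygous spinal cord, and was lower, with a log2 difference of -0.98 (SE 0.29, adjusted p 0.0187). Apaf1, at 710.3 and 673 in null forebrain, 656 and 765 in heterozygous forebrain, 583 and 586 in null spinal cord and 547 and 501 in heterozygous spinal cord, was lower, with a log2 difference of -0.33 (SE 0.11, adjusted p 0.0329), the smallest change of the 12 called. Its call ended with the embryo as a replicate block (adjusted p 0.054).

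Leaving out 1 of the 8 tissue arrays ended some of these calls. Ppm1d lost its call without null forebrain 2 or null spinal cord 1 (-1.36 to -0.60, highest adjusted p 0.0713). Perp lost it without null spinal cord 2 or heterozygous spinal cord 4 (0.65 to 0.80, highest adjusted p 0.0539). Plk3 lost it without 6 of the 8 (1.02 to 2.14, highest adjusted p 0.0901), all but null forebrain 1 and heterozygous forebrain 4, and Apaf1 without 7 (-0.38 to -0.28, highest adjusted p 0.114), all but heterozygous forebrain 3. The other 8 called members kept theirs, among them Sesn2, which passed the filter through spinal cord arrays alone and whose fit is a description. Cell type markers differed between the tissues as well. The summed signal of 8 astrocyte markers was 34172 to 37154 in spinal cord and 8488 to 9384 in forebrain. That of 5 microglia markers was 3031 to 4534 against 1383 to 1845, and that of 8 neuron markers 61945 to 66164 against 75792 to 78022. The Gapdh ratio was also higher in spinal cord (0.04 to 0.37) than in forebrain (-0.22 to -0.07). The part of cell make-up and RNA quality in these differences was not tested.

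**Figure D5:**
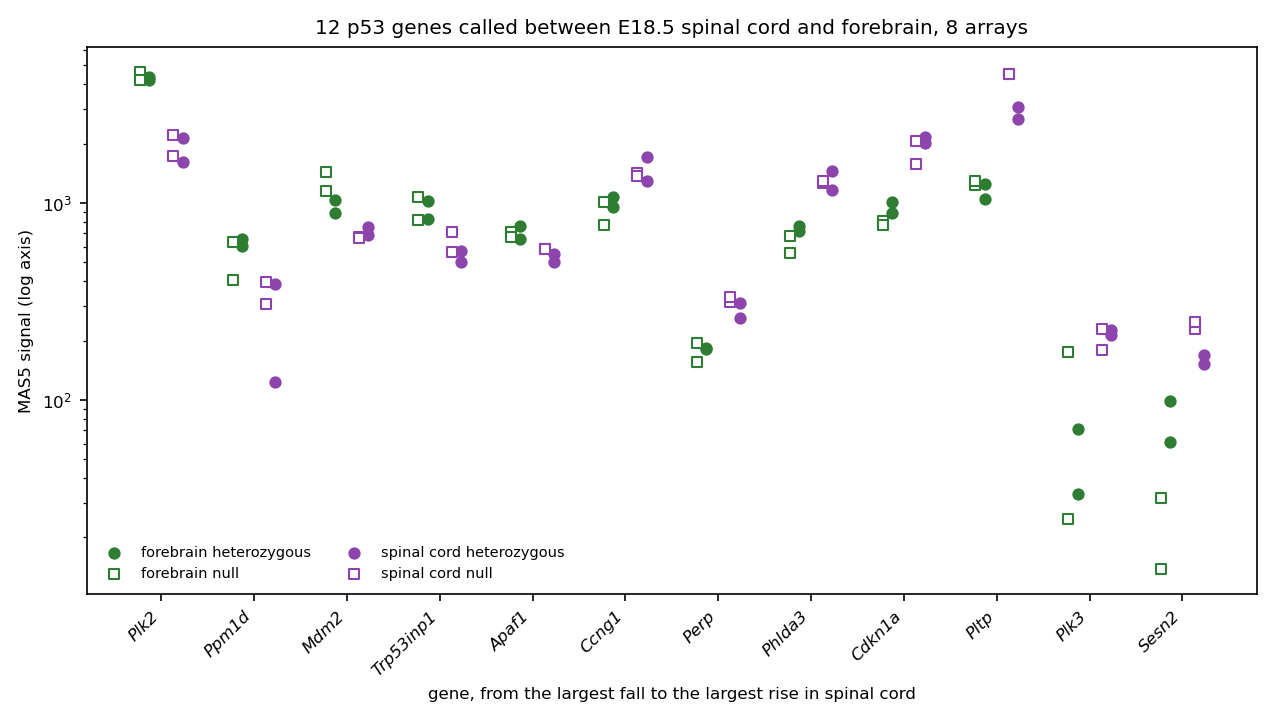
Signals on a log axis of the 12 p53 genes called between E18.5 spinal cord and forebrain, with 1 point a gene for each of the 8 tissue arrays by tissue and genotype. The 4 spinal cord arrays lie apart from the 4 forebrain arrays for each gene, above for 7 genes and below for 5. Over all genes 20% lay above and 18.1% below without overlap. The genes shown were chosen for being called on these arrays, so nothing is read from that separation. Sesn2, Perp and Plk3 passed the filter through spinal cord arrays alone.

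Genotype gave 0 calls among the 24 members in forebrain and 0 in spinal cord, against 0.0405% and 0.13% of all genes, with 2 arrays a group. At an unadjusted p under 0.05 there were 1 member and 782 genes (6.34%) in forebrain, and 3 members and 742 genes (6.01%) in spinal cord. In spinal cord Pltp had the lowest p (0.66, SE 0.12, adjusted p 0.0775), and it was called without heterozygous forebrain 4. In forebrain Mdm2 had the lowest p (0.42, SE 0.15, adjusted p 0.708), with both null arrays above both heterozygous ones. The interaction of genotype and tissue gave 0 calls in 24 and 0% of all genes, with 2 members and 705 genes (5.71%) at an unadjusted p under 0.05.

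The other called neurosphere genes had these levels in tissue. Zmat3 was at 668 and 546 in null forebrain, 685 and 668 in heterozygous forebrain, 704 and 638 in null spinal cord and 908 and 676 in heterozygous spinal cord, and did not separate the tissues (0.18). Ei24 was at 2686 and 2971 in null forebrain, 3022 and 3162 in heterozygous forebrain, 2834 and 2702 in null spinal cord and 2868 and 2872 in heterozygous spinal cord (-0.07). Aen was at 1004 and 938 in null forebrain, 1062 and 1028 in heterozygous forebrain, 1111 and 678 in null spinal cord and 1189 and 1036 in heterozygous spinal cord, and Sesn1 at 759.6 and 858 in null forebrain, 888 and 856 in heterozygous forebrain, 951 and 914 in null spinal cord and 899.5 and 839 in heterozygous spinal cord. Eda2r and Pmaip1 were below the array median on all 8 tissue arrays. Eda2r ran from 22.7 to 82.3, and Pmaip1 was at 24.2 and 14.3 in null forebrain, 21.9 and 9.1 in heterozygous forebrain, 6.8 and 9.8 in null spinal cord and 9.3 and 22.3 in heterozygous spinal cord. The filter therefore left both untested between the tissues. Rrm2b was at 537 and 622 in null forebrain, 636 and 586 in heterozygous forebrain, 551 and 565 in null spinal cord and 510.2 and 528 in heterozygous spinal cord, a difference of -0.14.

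Fas and Tnfrsf10b, genes for death receptors at the cell surface, were low on all arrays and were not tested. Over the 22 neurosphere arrays Fas ran from 14.8 to 160.1 and Tnfrsf10b from 5.8 to 179, and Plk3 from 10.6 to 70.5. Fas and Plk3 reached the array median on 0 of the 22 arrays, Tnfrsf10b and Perp on 1, and no order is read from such signals.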

How the data were processed

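RNA was measured on 30 Affymetrix Mouse Genome 430 2.0 arrays, 22 of neurospheres and 8 of tissue. The deposited values are intensity signals on a linear scale that the authors made with MAS5, per the submitters' processing notes, and their mean without the top and bottom 2% of probe sets was 499.9 to 500.3 on every array. No source used here names the software version, and detection calls were not used. The labels give 1 hybridisation day for all arrays, so no batch could be compared. The number of arrays limits the precision, and p-values measure the spread between these cultures or embryos.

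The platform annotation gave 1 gene symbol for 34945 of the 45101 probe sets, several for 932 and none for 9160, besides 64 controls. The RefSeq table (GRCm38.p6) matched 18032 of 18193 genes and changed 0 symbols. The 1 probe set of a gene with the highest mean log2 signal was used, as log2 of the signal plus 16. A gene was tested in a set of arrays when its signal was at least the array's median on a number of arrays equal to the size of the smallest group. The sets were 12 untransduced arrays, 10 virus arrays, the 15 arrays of lines 11 to 15 and 8 tissue arrays. Linear models were fitted to each set in R 4.3.3 by limma 3.58.1, with a trend in eBayes, and two-sided p-values were adjusted by Benjamini-Hochberg over all genes of a comparison. Files were read with the package data.table (version 1.17.8). Plots and promoter searches used python 3.11.15, pandas 2.3.3, numpy 2.4.6 and matplotlib 3.10.9.

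Line numbers in the titles, and embryo numbers for tissue, mark arrays of the same culture or embryo. Deviations of such arrays from their group means correlated at -0.09 to 0.13. The fits are unpaired, and fits that block on the line or embryo were alternatives. Other alternatives were pseudocounts of 1 and 64, other filters, quantile and 75th percentile scaling, other uses of probe sets, no trend, array weights, a Gapdh covariate, 1 fit over 22 arrays and each array left out. Leaving out line 13 was added after the values were seen. The members, their roles and the comparison lists were chosen with earlier results of these data known. Genes named were all members, with every array for Cdkn1a, Mdm2, Ccng1, Zmat3, each called member and the member of each role with the largest difference between Olig2 and GFP in null lines, and up to 4 genes of smallest p from each comparison list. On simulated data, 47% of 2-fold and 81% of 4-fold changes were recovered for Olig2 against GFP in null lines, 85% and 96% for null against Olig-expressing neurospheres, and 67% and 92% for spinal cord against forebrain, with 0 of the wrong sign.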

Additional observations from a re-analysis of the deposited data

Results flagged for a closer look

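Null line 16 stood apart from the other 5 untransduced null lines for both Zmat3 and Pmaip1, by a gap that took more than the Dixon limit for 6 samples of the group's range. Its Zmat3 signal was 1261, against 1747 to 2036 in the other lines, a gap of 0.68 of the range. Its Pmaip1 signal was 95.3, against 148.5 to 181.3, a gap of 0.682 of the range. Chance flags about 1 in 20 groups, and line 16 has no virus arrays.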

How the results depend on the processing

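Counts of called p53 genes moved with several settings. In null against Olig-expressing lines the count of 3 became 1 (Pltp) with no filter, with 75th percentile scaling or with no trend, and ran from 1 to 3 with each array left out. In null against wild-type lines the count of 1 became 2 with quantile normalization and in 1 fit over 22 arrays, 3 with array weights, and 1 to 2 with arrays left out. For Olig2 against GFP in null lines the 12 became 6 with no trend, 4 with the Gapdh covariate, 3 without line 13, and 6 to 14 with arrays left out. For null against heterozygous lines with GFP the 2 became 1 with no trend, 0 with the Gapdh covariate, 1 without line 13, and 0 to 3 with arrays left out. For Olig2 against untransduced null lines the 7 became 3 with no trend, 1 without line 13, and 3 to 9 with arrays left out. The interaction gave 1 call in the fit over 22 arrays and 0 to 1 with arrays left out, spinal cord genotype 0 to 1, and spinal cord against forebrain 9 to 11. These counts include Pmaip1, and for the tissues Sesn2, Perp and Plk3, where called, although they passed the filter through 1 side alone. The cause of these changes was not tested.

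With the line as a replicate block the counts were 10 for Olig2 against GFP and 5 for Olig2 against untransduced null lines, and with the embryo as a block 11 for spinal cord against forebrain; the block changed no other call. Of 45 single-gene results followed over 1038 alternatives, 862 stayed on their side of the threshold, 170 lost a call, 2 gained one and 4 turned direction. Those that turned were Ccng1 in null against Olig-expressing lines (-0.04 with the mean over probe sets, and -0.02 to 0.11 with single arrays left out, below 0 without wild-type line 2 or null line 13) and Mdm2 in null against heterozygous lines with GFP (-0.26 with the mean over probe sets). The gained calls were Mdm2 in null against Olig-expressing lines without null line 12 and Cdkn1a in null against heterozygous GFP lines without null GFP line 14 (0.80, adjusted p 0.0314). With 3 arrays a group, as for the viruses in null lines, 47% of 2-fold changes were recovered in simulated data. Comparisons between groups of 2 arrays were not simulated. Signals below the array median carry no order.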

Other observations

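Genes of other stress and signalling pathways were also read with Olig2 against GFP in the null lines. Of 16 genes controlled by ATF4, the transcription factor of the amino acid and endoplasmic reticulum stress responses, 5 rose and 0 fell, where 3.24% of all genes were called higher, with a median log2 difference of 0.69 against 0.03 over all genes. The lipoprotein receptor gene Vldlr rose by 1.45 (limma adjusted p 0.00166), and Ddit4, which encodes an inhibitor of mTORC1 and can also be induced by p53, rose by 1.30 (adjusted p 0.0129). Cebpb rose by 0.71 (adjusted p 0.0333) and the serine synthesis gene Phgdh rose by 0.68 (adjusted p 0.0372). With untransduced null cultures as the baseline, 2 of these 16 genes rose and 0 fell, where 1.77% of all genes were called higher.

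Of 16 immediate early genes tested, which respond to growth factors within minutes, 1 rose with Olig2 against GFP in null lines, the synaptic gene Arc (2.89, adjusted p 0.0144). Over all genes 3.24% were called higher, so this 1 call is not read as a result about the list. The median of the list was 0.33. In null against Olig-expressing neurospheres without virus, 4 of the 16 ATF4 genes were lower and 0 higher, where 3.98% of all genes were called lower, with a median of -0.41. These lists were not tested as lists.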
